A study of Homo sapiens with 9 samples.

Results

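The 54 genes described here encode the proteins that copy DNA in S phase, supply its building blocks and open the way into S phase. They were taken from a list of symbols, and a gene was kept where it had at least 10 counts in at least 3 of the 9 libraries. All 54 listed genes met this, out of 63187 genes in the count table and 16030 genes that passed the same filter. They comprised 8 genes of origin licensing and firing, 6 subunits of the MCM helicase, 5 genes of CDC45 and the GINS complex and 9 genes of the replicative polymerases and primase. The remainder were 8 genes of the sliding clamp, its loader and Okazaki fragment maturation, 3 subunits of replication protein A, 5 genes of nucleotide supply, 3 of chromatin assembly, 3 of fork protection and 4 cyclins and E2F factors of the G1/S transition.

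The cells were BEAS-2B, a line of human bronchial epithelial cells made with a hybrid of adenovirus and simian virus whose large T antigen binds the RB and p53 proteins. All cells were grown in the same serum-supplemented medium. The control cells were left untreated, the PG/VG cells were exposed to condensed aerosol of the carrier liquid alone (propylene glycol and vegetable glycerine), and the EC cells to condensed aerosol of an e-cigarette liquid with 18 mg/mL nicotine and Virginia tobacco flavour. Both exposures were at a dilution of 2% (v/v) for 24 h, and each condition had 3 poly-A libraries, numbered 2, 3 and 4, a number the labels also give as the batch. EC and PG/VG thus differ in nicotine and in flavour together, and the ratio of the carriers is stated for the PG/VG liquid alone. The values hold for 1 cell line.

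Before S phase, the origin recognition complex with CDC6 and CDT1 loads the MCM helicase onto DNA. In S phase the kinase CDC7 with DBF4 and the binding of CDC45 and GINS turn the helicase on, and the polymerases alpha, delta and epsilon copy the opened strands. Many of these genes are transcribed late in G1 by E2F factors, which RB holds back until kinases driven by cyclins, that of cyclin E among them, phosphorylate RB.

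The libraries held 16168260 to 24917838 gene counts, and the 54 genes had from 135 to 14170 counts per library. The batch, as the labels give it, was a block in every comparison of conditions. Of the epithelial markers, KRT7, KRT8 and KRT18 had 6075 to 26280 counts per library. EPCAM had at most 47 counts, CDH1 at most 31 and KRT5 at most 1, whereas the mesenchymal markers VIM, FN1 and CDH2 had 4703 to 131162. Among the epithelial markers with values given here, the simple keratins were high and the adhesion markers EPCAM and CDH1 were near the detection limit. The lists also held KRT19 and CLDN4 (epithelial) and COL1A1, COL1A2 and PDGFRB (mesenchymal). Values of these are not given here, so the cell type is not judged from the full lists. Of the full lists, 7 of 8 epithelial and 5 of 6 mesenchymal markers passed the count filter. The leukocyte markers PTPRC, CD68 and CD3E summed to at most 0.386 CPM (a gene's counts scaled to a common library size) in any library. CD68 shares 85.6% of its exon length with other genes, and reads that overlapped several genes were not counted. Its low count therefore cannot show absence. The endothelial markers PECAM1, CDH5 and VWF summed to 4.24 to 7.76 CPM, and 1 of the 3 passed the count filter.

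Per kilobase of exon, with the exons of all annotated transcripts of a gene merged, the genes spanned a 113-fold range in control cells. The level is given as FPKM, the CPM divided by the gene's exon length in kilobases. PCNA, the sliding clamp that holds polymerases on DNA, stood highest with 233 ± 21.1 FPKM (SD, n = 3), and TK1, the thymidine kinase of the salvage pathway, followed with 201 ± 32.8, a difference within their spread. FEN1, the nuclease that trims Okazaki fragments, had 104 ± 5.84 FPKM. MCM3, MCM7 and RRM1, the large subunit of ribonucleotide reductase, followed with 90.7 ± 16.9, 83.8 ± 14.4 and 83.2 ± 3.19 FPKM, and these neighbours did not differ beyond their spread. The median gene had 23.3 FPKM. At the low end stood CCNE1 (cyclin E1) with 5.22 ± 0.114, E2F2 with 3.82 ± 2.11 and POLA2, the second subunit of polymerase alpha, with 2.05 ± 0.0453 FPKM. The low place of POLA2 depends on its merged exon length of 12006 bases, against 2461 for CCNE1 and 5462 for E2F2. Before division by length it had 24.7 CPM in control cells, against 12.9 for CCNE1 and 20.9 ± 11.5 for E2F2.

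To show what the promoters of these genes share, the RefSeq promoter windows (GRCh38.p14, from 250 bases before to 50 bases after a start) were searched on both strands for the E2F-type letters TTTCCCGC, TTTGCCGC, TTTCGCGC and TTTGGCGC. Windows were given for 47 of the 54 genes, and 25 of the 47 (53.2%) held at least 1 of these words, against 1090 of 27305 genes (3.99%). The same windows were searched for CCAAT, held by 28 of the 47 genes (59.6%, against 39.7% of all genes with a window). TTTGAA or TTCGAA was held by 4 of the 47 (8.51%, against 19.5%). The genes compared with were all those with a window, whether or not they passed the count filter. The following stretches of 30 bases are shown as examples, chosen after the values were seen, from genes that did and did not pass in the batch comparison described later. Each is written 5′ to 3′ along the strand of its gene, and capitals mark the matched E2F-type letters, on either strand. The first 4 belong to genes with a lower level in batch 4.
E2F2, chr1:23531257-23531286, minus strand: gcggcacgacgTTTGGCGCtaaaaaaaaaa
E2F1, chr20:33686387-33686416, minus strand: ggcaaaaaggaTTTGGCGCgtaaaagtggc
MCM6, chr2:135876515-135876544, minus strand: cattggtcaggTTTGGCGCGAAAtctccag
CDT1, chr16:88803743-88803772, plus strand: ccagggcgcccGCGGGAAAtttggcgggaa
The next 3 belong to genes whose level did not pass the test between batches.
CDC7, chr1:91501067-91501096, plus strand: tccgacctgcgGCGGGAAAgtcgcgcgcct
GMNN, chr6:24775322-24775351, plus strand: gctgggtcggtTTTGGCGCgctctcacttc
TIPIN, chr15:66356733-66356762, minus strand: ccccgcacggaTTTGGCGCCAAAcgctgcg
All 7 stretches lie upstream of the start of their window and outside annotated exons. Those of CDC7, GMNN and TIPIN lie inside the gene, before an alternative start, and the window of the other start held no E2F-type match. In MCM6 the capitals cover TTTGGCGC and, overlapping it on the other strand, TTTCGCGC, and in TIPIN they cover TTTGGCGC on both strands. A match is a description of the letters and not of a bound site.

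After 24 h of EC, the level of most replication genes lay close to that of untreated cells. In EC vs. control, 4 of the 54 genes (7.41%) passed the threshold of 0.05 on the adjusted p (edgeR's quasi-likelihood test, Benjamini-Hochberg over all 16030 genes), against 13.5% of all genes (8.07% higher and 5.38% lower). The cyclin CCNE1 rose, and the helicase subunit MCM7, the helicase activator CDC45 and the polymerase subunit POLD2 fell. The log2 fold change (LFC) ran from -0.28 to 0.42 over the 54 genes, with a median of -0.04 beside 0.01 for all genes. It was below 0 for 34 of the 54 genes, against 48.5% of all genes. An unadjusted p under 0.05 was found for 12 genes (27.4% of all genes), and 12 genes were lower in all 3 batches (21.5% of all genes) and 7 higher in all 3 (24.6%). ComBat-Seq adjustment followed by DESeq2, the route of the study's methods, called 13 of the 54 genes, 3 higher and 10 lower, beside 3099 of all genes. Besides the 4 genes above these were ORC1 and CCNE2, higher, and POLA1, POLD1, POLD3, RFC1, RFC2, RFC3 and TK1, lower. By this route the share called was larger among the 54 genes than among all genes, whereas with edgeR it was smaller. These shares were not tested against each other. For 53 of the 54 genes the 95% interval of the LFC lay within ±0.5, CCNE1 being the exception, with a median distance of 0.15 from the estimate to either bound. The summed epithelial markers were 1459 to 2285 CPM in EC libraries and 1774 to 2842 in controls, and the mesenchymal markers 3555 to 5463 and 5040 to 7023, and their part in these values was not tested.

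**Figure D1:**
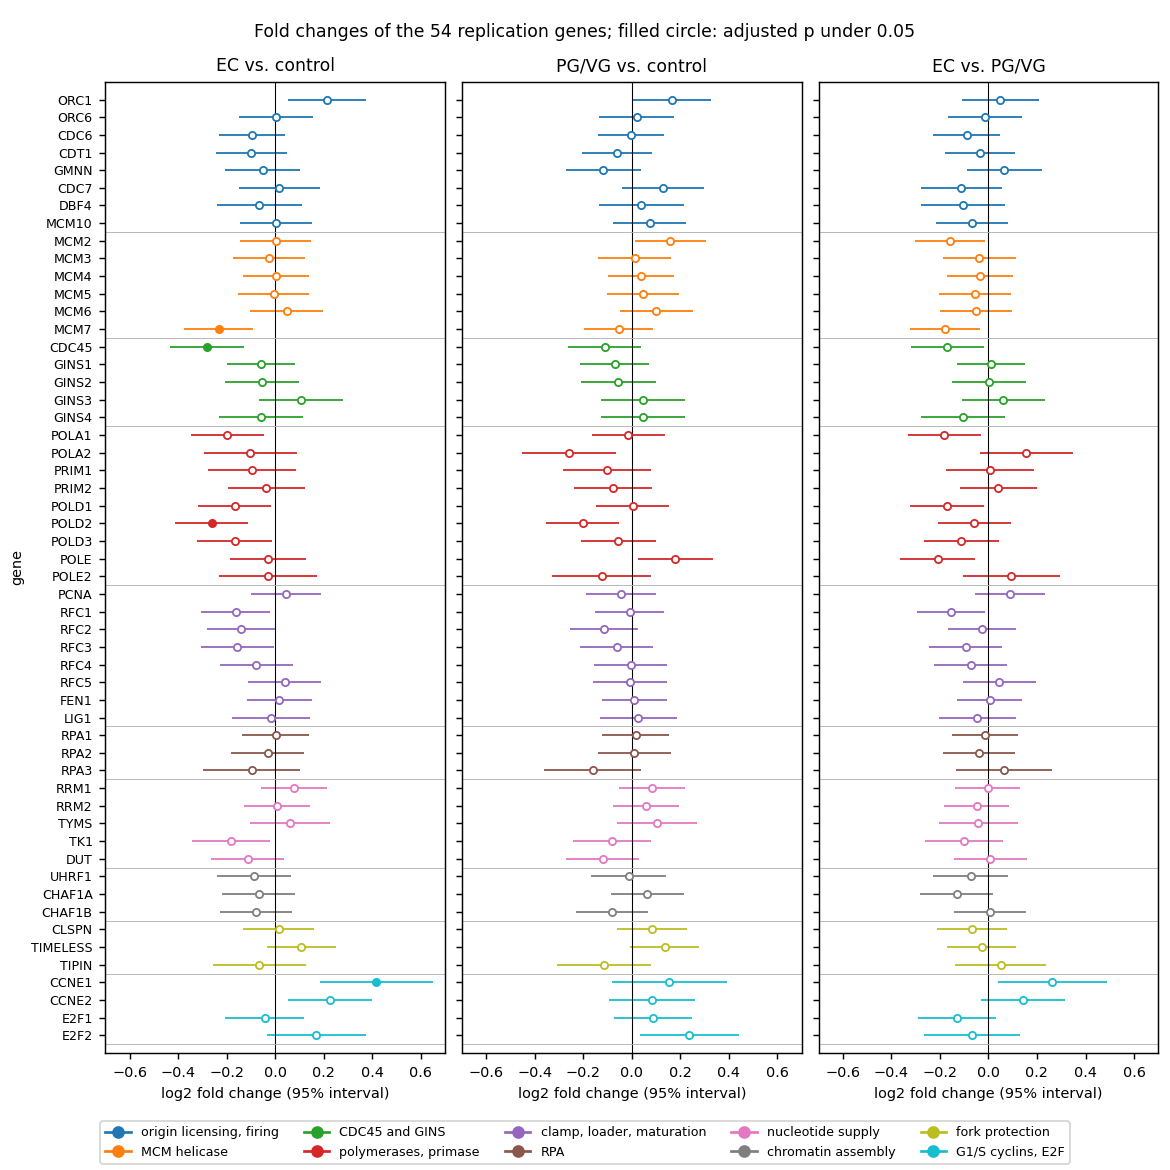
LFC (points) with its 95% interval (lines) for each of the 54 genes, one row per gene, with a panel for each treatment against control and a panel for EC against the carrier. Colours mark the role of the gene, and filled circles mark the 4 genes with an adjusted p under 0.05, all of them in EC vs. control. The 2 comparisons with control share their control libraries.

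CCNE1 (ENSG00000105173, chr19:29811991-29824312, plus strand, GRCh38) encodes cyclin E1, which drives the kinase that opens S phase. Its level in control libraries 2, 3 and 4 was 12.8, 12.6 and 13.2 CPM, and in the EC libraries 19.2, 18.7 and 13.99 CPM. Every EC library was above every control library, the one of batch 4 by the least. A separation of this kind and direction was found for 9.83% of all genes. The LFC was 0.42 ± 0.11 (SE, n = 3 per group, adjusted p = 0.0161 by edgeR's quasi-likelihood test), and within batches 2, 3 and 4 it was 0.57, 0.55 and 0.08. The PG/VG libraries had 15.7, 14.1 and 13.3 CPM, between control and EC within each batch, with an LFC of 0.15 against control (adjusted p = 0.484). The call in EC vs. control was lost without control library 2 (LFC 0.33, adjusted p = 0.125), control library 3 (0.36, 0.116), EC library 2 (0.36, 0.0758) or EC library 3 (0.34, 0.104). Without the 3 libraries of batch 4 the LFC was 0.56 (adjusted p = 0.0113).

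CDC45 (ENSG00000093009, chr22:19479457-19520612, plus strand) encodes the protein that joins MCM and GINS in the active helicase. It had 106, 108 and 66.5 CPM in control libraries 2, 3 and 4, and 90.1, 81.3 and 58.2 CPM in the EC libraries. EC was the lowest of the conditions in each batch, although the groups overlapped because both levels were lower in batch 4. It fell by 0.28 ± 0.07 on the log2 scale (SE, n = 3 per group, adjusted p = 0.0129 by edgeR's quasi-likelihood test), and by 0.23, 0.41 and 0.19 within the batches. The PG/VG libraries had 96.4, 102 and 61.8 CPM, an LFC of -0.11 against control (adjusted p = 0.418). The call was lost without control library 3 (LFC -0.27, adjusted p = 0.0966) or EC library 3 (-0.21, 0.111). It was kept without batch 4 (-0.34, 0.0296).

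MCM7 (ENSG00000166508, chr7:100092233-100101940, minus strand) encodes 1 of the 6 subunits of the helicase ring. The control libraries had 437, 474 and 336 CPM and the EC libraries 409, 398 and 264 CPM. Within each batch EC was below control, and over all batches the groups overlapped. It fell by 0.23 ± 0.07 on the log2 scale (SE, n = 3 per group, adjusted p = 0.0281 by edgeR's quasi-likelihood test), with within-batch values of -0.10, -0.25 and -0.35. PG/VG had 448, 478 and 291 CPM, below control in batch 4 alone, with an LFC of -0.05 (adjusted p = 0.72). The call in EC vs. control was lost without control library 3 (LFC -0.26, adjusted p = 0.0865), control library 4 (-0.17, 0.186), EC library 3 (-0.21, 0.123) or EC library 4 (-0.23, 0.0919), and without the whole of batch 4 (-0.19, 0.14). Of its exon length, 8.49% is shared with AP4M1 on the opposite strand and with a microRNA gene, and reads that overlapped several genes were not counted.

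POLD2 (ENSG00000106628, chr7:44114631-44124358, minus strand) encodes the second subunit of polymerase delta, which extends the lagging strand. Its level was 227, 239 and 216 CPM in control libraries and 213, 198 and 162 CPM in EC libraries. The groups did not overlap, as for 7.42% of all genes in this direction. It fell by 0.26 ± 0.07 on the log2 scale (SE, n = 3 per group, adjusted p = 0.0192 by edgeR's quasi-likelihood test), with within-batch values of -0.09, -0.27 and -0.42. The PG/VG libraries had 210, 222 and 166 CPM, an LFC of -0.20 against control (adjusted p = 0.114), so that EC and PG/VG were close (LFC -0.06, adjusted p = 0.802). The call was lost without control library 4 (LFC -0.18, adjusted p = 0.163), EC library 3 (-0.23, 0.0953) or EC library 4 (-0.24, 0.0954), and without batch 4 as a whole (-0.19, 0.147).

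**Figure D2:**
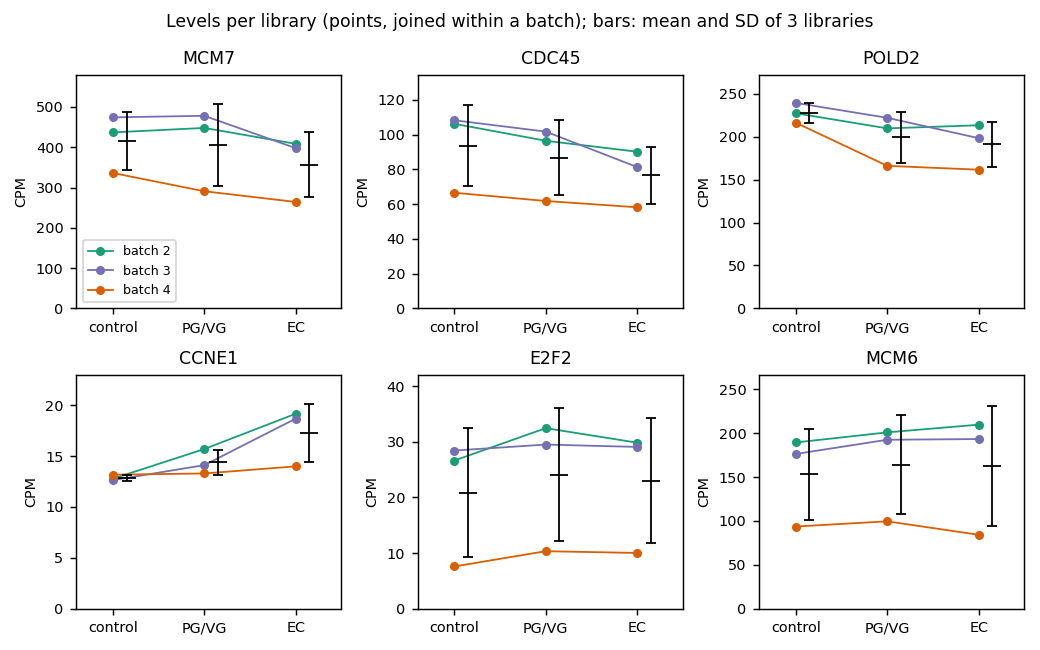
CPM of MCM7, CDC45, POLD2, CCNE1, E2F2 and MCM6 (vertical axes, each from 0) in the 3 conditions. Coloured points are libraries, joined within batch 2, 3 or 4, and black bars give the mean and SD of the 3 libraries of a condition. The lines of batch 4 lie below those of batches 2 and 3 in 5 of the panels, and in CCNE1 the batch 4 control library is the highest control library.

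By role, the LFC in EC was below 0 for 9 of 9 polymerase and primase genes, with a median of -0.10, and 5 of them were lower in all 3 batches. It was also below 0 for 3 of 3 chromatin assembly genes, with a median of -0.08. POLD2 alone passed the threshold. POLA1, the catalytic subunit of polymerase alpha, had an LFC of -0.20 (adjusted p = 0.0792), and POLD1 and POLD3 of polymerase delta had -0.17 in each case (adjusted p = 0.14 and 0.15). POLE, the catalytic subunit of the leading-strand polymerase, had -0.03. In the MCM helicase, 3 of 6 genes were below 0, the median was -0.002 and, apart from MCM7, the LFC of the subunits lay between -0.03 and 0.05. The summed level of the 6 subunits was 1892, 1878 and 1391 CPM in the control libraries and 1939, 1884 and 1214 CPM in the EC libraries. The EC sum was thus above control in batches 2 and 3 and below it in batch 4.

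Of CDC45 and GINS, 4 of 5 genes were below 0, but the 4 GINS subunits, none of which passed, had LFC values between -0.06 and 0.11. Among licensing genes the value furthest from 0 belonged to ORC1, the large subunit of the origin recognition complex. ORC1 had 42.4, 40.0 and 34.8 CPM in control libraries, 44.5, 45.3 and 41.4 in PG/VG and 47.1, 48.3 and 40.5 in EC. Both treated groups were above control within every batch, but neither the EC value (LFC 0.21 ± 0.08, adjusted p = 0.0728) nor the PG/VG value (0.17, 0.238) passed. CDC6 and CDT1, the loaders of MCM, had LFC values of -0.09 and -0.10 in EC, and GMNN, the inhibitor of CDT1, had -0.05.

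Of the clamp, loader and maturation genes, none of 8 passed and the median was -0.05. RFC1, the large subunit of the clamp loader, had 157, 141 and 143 CPM in control libraries, 151, 136 and 151 in PG/VG and 131, 131 and 133 in EC. The EC libraries were all below the control libraries, as for 7.42% of all genes, and below the PG/VG libraries, as for 3.37%. The LFC of RFC1 was -0.16 ± 0.07 against control (adjusted p = 0.126). PCNA, which RFC loads, had an LFC of 0.04. RPA3, the small subunit of the protein that coats single-stranded DNA, had 40.2, 41.7 and 41.4 CPM in control libraries, 38.2, 42.0 and 31.1 in PG/VG and 45.6, 38.0 and 32.6 in EC. Its EC libraries lay on both sides of the controls (LFC -0.10, adjusted p = 0.561), and RPA1 and RPA2 had LFC values of 0.003 and -0.03.

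In nucleotide supply, RRM1, RRM2 and the thymidylate synthase TYMS had LFC values of 0.08, 0.01 and 0.06 in EC. TK1 had 386, 422 and 304 CPM in control libraries, 394, 426 and 248 in PG/VG and 395, 341 and 251 in EC. It was below control in EC in batches 3 and 4 but not in batch 2, with an LFC of -0.18 ± 0.08 (adjusted p = 0.132), and it passed when EC library 2 was left out (LFC -0.27, adjusted p = 0.0282). UHRF1, which carries DNA methylation through replication, had 195, 210 and 168 CPM in control libraries, 213, 204 and 155 in PG/VG and 200, 211 and 136 in EC. Its LFC was -0.09 (adjusted p = 0.486), and EC was below control in batch 4 alone. TIMELESS, a fork protection factor, had 142, 158 and 129 CPM in control libraries, 174, 163 and 135 in PG/VG and 162, 165 and 134 in EC. It was above control within every batch in both treatments, and neither LFC passed (0.11 and 0.14, adjusted p = 0.338 in EC and 0.281 in PG/VG). Of the G1/S genes besides CCNE1, CCNE2 had an LFC of 0.23 (adjusted p = 0.0799), E2F2 of 0.17 (adjusted p = 0.283) and E2F1 of -0.04 in EC. CCNE2 shares 37.1% of its exon length with opposite-strand genes, and TYMS 47.9%.

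PG/VG alone moved no replication gene past the threshold. In PG/VG vs. control, 0 of 54 genes passed by edgeR's quasi-likelihood test, against 4.54% of all genes (2.63% higher and 1.9% lower), and DESeq2 with the batch in the model gave 0 too. An unadjusted p under 0.05 was found for 6 genes (20.1% of all genes): ORC1, MCM2, POLE and E2F2 above control, and POLA2 and POLD2 below it. The LFC ran from -0.26 for POLA2 to 0.24 for E2F2, with a median of 0.01 (all genes 0.01), and 26 of 54 genes were below 0 (47.1% of all genes). Lower levels in all 3 batches were found for 11 genes (19.9% of all genes) and higher levels in all 3 for 10 (23.6%). All 54 intervals lay within ±0.5. POLA2 had 24.1, 24.7 and 25.2 CPM in control libraries and 21.5, 21.9 and 18.6 in PG/VG libraries, and the groups did not overlap (adjusted p = 0.117). Its EC libraries, with 22.8, 22.9 and 23.3 CPM, were also all below the controls (LFC -0.10, adjusted p = 0.522). In PG/VG vs. control GMNN was separated in the same direction and CCNE1 in the other, as were 6.37% of all genes on the lower and 7.79% on the higher side. POLA2 shares 21.3% of its exon length with other genes. POLD2 passed when the 2 groups were fitted alone (LFC -0.22, adjusted p = 0.0476) and without EC library 2 (-0.21, 0.0479). ComBat-Seq followed by DESeq2 called 2 of the 54 genes, POLA2 and POLD2 (-0.21, 0.0159 for POLD2), both lower. The share called by that route was larger among all genes.

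Set against the carrier directly, EC also left 0 of 54 genes past the threshold, against 0.855% of all genes (0.555% higher and 0.299% lower), by edgeR's quasi-likelihood test and by DESeq2 with the batch in the model. An unadjusted p under 0.05 was found for 8 genes (12.9% of all genes). MCM2, MCM7, CDC45, POLA1, POLD1, POLE and RFC1 were lower in EC and CCNE1 was higher. The LFC ran from -0.21 for POLE to 0.26 for CCNE1 and was below 0 for 36 of the 54 genes (49.3% of all genes), with a median of -0.04. In all 3 batches 12 genes were lower (14.6% of all genes) and 4 higher (16.8%). The groups did not overlap for RFC1, lower in EC (3.37% of all genes), and POLA2, higher in EC (4.54%). All 6 MCM genes were below 0, between -0.18 and -0.04. All 54 intervals lay within ±0.5, so that larger differences between EC and PG/VG fell outside the 95% intervals. The 4 genes that passed in EC vs. control had adjusted p-values between 0.252 and 0.802 here, so that this test showed a difference between EC and PG/VG for none of them. ComBat-Seq followed by DESeq2 called 1 of the 54 genes here, MCM7 (LFC -0.19, adjusted p = 0.0356), a smaller share than it called among all genes.

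The larger difference among these libraries lay between batches. The level of 36 of the 54 genes (66.7%) differed between batches 2, 3 and 4 (edgeR's quasi-likelihood test on both batch terms, adjusted p under 0.05), against 34.3% of all genes. This test takes any difference among the 3 batches, and batch 4 was not tested alone against the others. Each adjusted p given for batch is from it. All 36 were lower in batch 4 than the mean of batches 2 and 3, whereas 17.1% of all genes were called and lower and 17.2% called and higher. For 35 of the 54 genes every batch 4 library, treated or not, was below every library of batches 2 and 3, against 14.6% of all genes, and for 0 of 54 every batch 4 library was above. The median difference was -0.31 on the log2 scale, or 19.4% lower, beside -0.003 for all genes. Batches 2 and 3 differed by -0.16 to 0.12 over the 54 genes. Of the 36 genes, 30 passed in each of the 9 fits that left out 1 library, and the other 6 were MCM4, POLD2, PCNA, RFC2, FEN1 and RPA1.

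**Figure D3:**
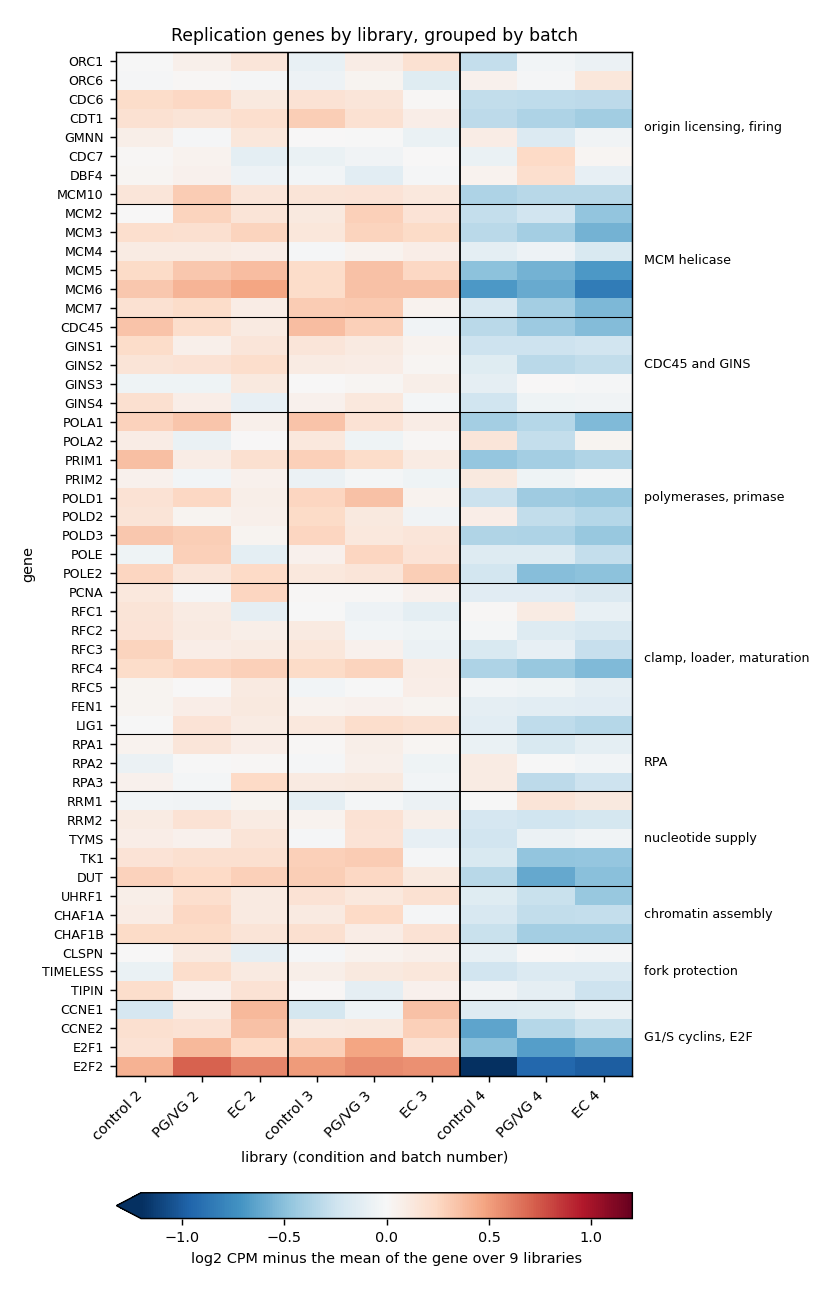
Heat map of the 54 genes (rows, grouped by role) in the 9 libraries (columns, grouped by batch), coloured by log2 CPM minus the mean of the gene over the 9 libraries. The 3 columns of batch 4 are blue (below the mean of the gene) in most rows, in control, PG/VG and EC alike, and the arrow of the colour bar marks values beyond the scale, as for E2F2 in the batch 4 control library.

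E2F2, an activating E2F factor (ENSG00000007968, chr1:23506438-23531233, minus strand), had 26.6, 28.4 and 7.60 CPM in control libraries 2, 3 and 4. The PG/VG libraries had 32.4, 29.5 and 10.3 CPM and the EC libraries 29.8, 29.1 and 10.0 CPM. The batch 4 libraries were thus the lowest in each condition, by 1.65 on the log2 scale or 3.14-fold (adjusted p = 1.06e-11). MCM6 (ENSG00000076003, chr2:135839626-135876443, minus strand) had 189, 176 and 93.7 CPM in control libraries, 201, 193 and 99.6 in PG/VG and 210, 193 and 84.3 in EC. It was 2.09-fold lower in batch 4 (adjusted p = 6.02e-11). MCM5 (ENSG00000100297, chr22:35400134-35425431, plus strand) had 220, 217 and 133 CPM, 234, 239 and 126 CPM, and 242, 222 and 116 CPM in the same order, and was 1.83-fold lower (adjusted p = 1.12e-09). In these 3 genes no library of batch 4 reached any library of batches 2 and 3.

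By role, a difference between batches was called in 6 of 6 MCM genes, with a median difference of batch 4 of -0.61. It was called in 7 of 9 polymerase and primase genes (-0.57), in 3 of 3 chromatin assembly genes (-0.43) and in 3 of 4 G1/S genes (-0.74). It was called in 3 of 5 genes of CDC45 and GINS (-0.36), 6 of 8 clamp and loader genes (-0.20) and 3 of 5 nucleotide supply genes (-0.33). It was called in 3 of 8 licensing genes (-0.13), 1 of 3 genes of replication protein A (-0.19) and 1 of 3 fork protection genes (-0.20), and the roles were not tested against each other. Within licensing, CDC6, CDT1 and MCM10 fell by 0.46, 0.55 and 0.52 in batch 4. ORC6, CDC7 and its partner DBF4 had differences of 0.09, 0.09 and 0.08, none past the threshold. In the G1/S group E2F1 fell by 0.87 and CCNE2 by 0.61, while CCNE1 had -0.19 (adjusted p = 0.255). Of the subunits of ribonucleotide reductase, RRM2 fell by 0.33 and RRM1 had a difference of 0.13 (adjusted p = 0.141). The E2F-type letters shown above were in the promoters of 18 of 32 genes past the batch threshold (56.2%) and of 7 of 15 other genes (46.7%), a gene counting where any of its windows held them.

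**Figure D4:**
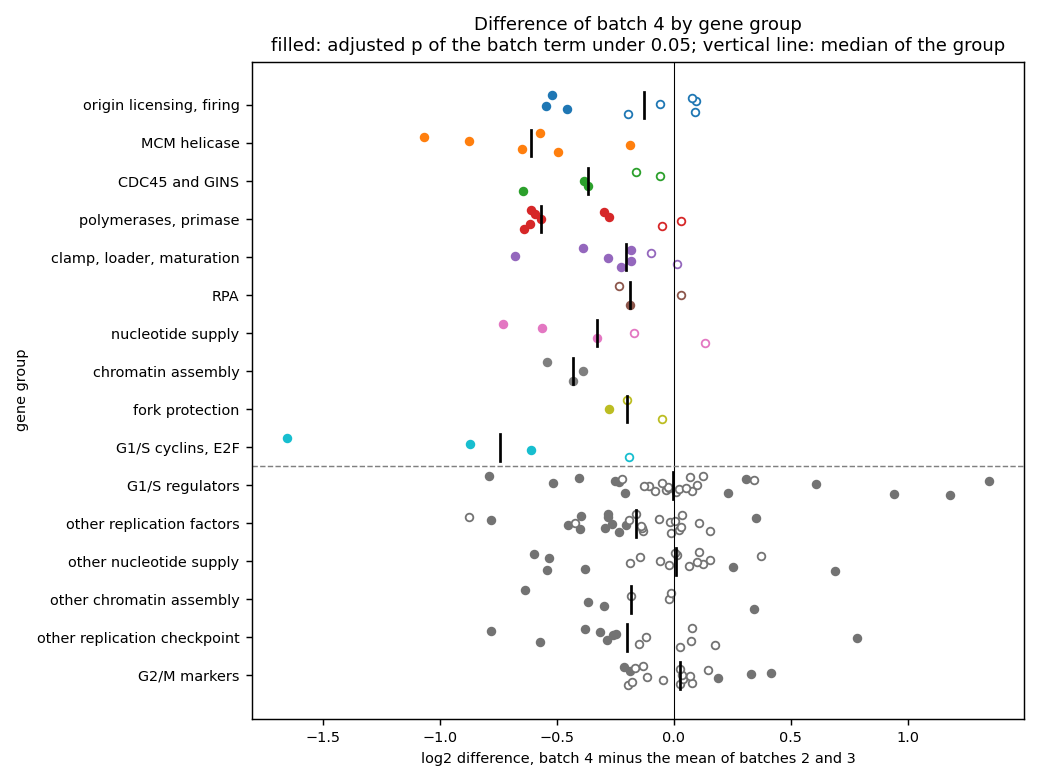
Log2 difference of batch 4 from the mean of batches 2 and 3 (horizontal axis) for each gene, in rows by role for the 54 replication genes (coloured) and by list for 112 other genes (grey). Filled points have an adjusted p of the batch term under 0.05 and black lines are medians, which are below 0 in all 10 replication groups.

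Genes of neighbouring pathways differed from list to list in batch 4, beside 17.1% of all genes called and lower and 17.2% called and higher. Of 27 other replication factors, 10 were called and lower and 1 was higher, and of 14 further replication checkpoint genes 7 were lower and 1 higher. Of 28 further G1/S regulators 6 were lower and 6 higher: the kinase inhibitor CDKN1A was higher by 1.35 and cyclin D1 (CCND1) by 1.18, and SKP2 fell by 0.79. CDKN1A had 304, 320 and 709 CPM in control libraries 2, 3 and 4. Of 18 G2/M genes 2 were lower and 3 higher, with a median of 0.03. In either direction, 40.7% of the other replication factors and 57.1% of the checkpoint genes were called, beside 34.3% of all genes. For the G1/S regulators the share was 42.9% and for the G2/M genes 27.8%. The share of all counts held by the 54 replication genes was 0.771% to 0.811% in batches 2 and 3 and 0.63% to 0.641% in batch 4. In batch 4 the epithelial markers summed to 1459 to 1774 CPM, against 2041 to 2842 in batches 2 and 3, and the mesenchymal markers to 3555 to 5040 CPM, against 4608 to 7023. The part of these markers in the batch result was not tested. Fewer cells in S phase and less RNA of these genes per cell cannot be told apart in bulk libraries, nor can any of the steps that may have differed between batches.

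In EC vs. control the same neighbouring lists had 14 of 112 genes past the threshold (12.5%, beside 13.5% of all genes). CDKN1A rose by 0.28 ± 0.07 (SE, n = 3 per group, adjusted p = 0.0128 by edgeR's quasi-likelihood test), SKP2 by 0.21 and DSCC1, a factor of the cohesion clamp loader, by 0.30, and CCND1 fell by 0.22. In nucleotide supply SAMHD1, which breaks down dNTPs, and RRM2B, a p53-induced subunit of ribonucleotide reductase, rose by 0.41 and 0.44, and the purine synthesis genes PAICS and GART fell by 0.26 and 0.27. HELLS, a chromatin remodeller, fell by 0.28. None of the 14 checkpoint genes passed. Of 18 G2/M genes, 5 passed and all were lower, with AURKA, PLK1 and CDC20 at -0.35, -0.31 and -0.27. The LFC was below 0 for 18 of 18, and the median was -0.20 beside -0.04 for the replication genes. In PG/VG vs. control 2 of the 112 genes passed (1.79%, beside 4.54% of all genes), SAMHD1 (LFC 0.43) and the kinase inhibitor CDKN2B (0.31). In EC vs. PG/VG 3 passed (2.68%, beside 0.855% of all genes): CDKN1A was higher (0.33) and the mitotic genes PLK1 (-0.32) and CENPE (-0.38) were lower. Whether the G2/M and the replication genes differed in their response was not tested.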

How the data were processed

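RNA-seq was analysed in 9 libraries of BEAS-2B cells, 3 per condition. The deposited values are raw counts per gene, which the authors made with fastp, STAR (GRCh38.p12) and featureCounts of Subread 2.0.4 over exons, ignoring multi-mapping and multi-overlapping reads; the strand setting is not given in the sources used here. No sample column was left unused.

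Genes that reached 10 counts in 3 or more libraries were tested with edgeR 4.0.16 (R 4.3.3): TMM scaling, robust dispersions, glmQLFit and glmQLFTest on condition and batch over all 9 libraries, with Benjamini-Hochberg adjustment and a threshold of 0.05. The SE is the absolute LFC divided by the root of F, and the 95% intervals use it. Within-batch values are differences of log2(CPM + 0.5). Exon lengths, coordinates and symbols came from GENCODE 44 (GRCh38), which held 62666 of 63187 identifiers and all 186 listed symbols; promoter sequences came from RefSeq (GRCh38.p14). The pairing by batch comes from the labels, which call the number a batch, and in the check of deviations from the group means the 9 same-numbered pairs correlated at 0.401 to 0.765 across genes. Pairs between batches 2 and 3 correlated at 0.347 to 0.512, as high as the same-numbered pairs within those batches, and pairs of either with batch 4 at -0.618 to -0.492, so the check separates batch 4 from the others and not batch 2 from batch 3. The fit was run on simulated data as a check of the code, and its recovery of changes as small as those reported is not given here. The study calls the libraries biological replicates. The p-values of the conditions rest on the spread between libraries left after the batch block, estimated with information shared across genes. For batch, the 3 libraries of a number, 1 per condition, stood in as its replicates. No pair of libraries of the same condition was a duplicate (chi-square per gene at least 3.66), and pairs of different conditions were not checked in this way.

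Values of every library are given for genes past the threshold in a comparison of conditions, for the gene with the smallest p in EC vs. control in each role, and for the 3 genes with the smallest p and the 3 with the largest difference in batch 4, which were the same genes; POLA2, CDKN1A and other single genes were named within their groups. The members and lists were chosen with earlier results of these data known. Alternatives were DESeq2 1.42.0 with a batch term, ComBat-Seq (sva 3.50.0) followed by DESeq2 as in the study's methods, other scaling and filters, fits of 2 groups, thinned counts, no block and leaving out each library.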

Additional observations from a re-analysis of the deposited data

How the results depend on the processing

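The batch block decided the calls between conditions: with no replicate block, 0 of 54 replication genes passed in EC vs. control, and of all genes 16 passed there, 1 for PG/VG against control and 1 for EC against PG/VG. ComBat-Seq with DESeq2, which removes the batch before the test and leaves it out of the model, called 13 replication genes in EC vs. control, 2 for PG/VG against control (POLA2 and POLD2) and 1 for EC against PG/VG (MCM7), and of all genes 1735 for PG/VG against control and 658 for EC against PG/VG. Fitting 2 groups alone called 1 replication gene for PG/VG against control, with 1241 of all genes, and 316 of all genes for EC against PG/VG; testing every gene with at least 1 count called 309 in the latter. Without the 3 libraries of batch 4, an alternative chosen after seeing the data, 2 replication genes passed in EC vs. control, CDC45 and CCNE1, and 1216, 324 and 80 of all genes passed. Leaving out 1 library gave 0 to 4 replication genes in EC vs. control (0 without EC library 3, 1 without control library 3) and 0 to 1 in PG/VG vs. control (1 without EC library 2), with 1162 to 2172, 192 to 1084 and 32 to 208 of all genes in the 3 comparisons; between batches it gave 30 to 38 replication genes. The median LFC of the 54 genes ran from -0.07 to 0.002 in EC vs. control and from -0.02 to 0.02 in PG/VG vs. control over all alternatives. No LFC of a gene named by rule passed the threshold in the opposite direction. The cause of these differences was not tested.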
